A study of Mus musculus with 8 samples.

Results

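Interleukin-4 and interleukin-13 (IL-4/IL-13) were examined as one factor in mouse bone marrow-derived macrophages, by setting every array of cells given these cytokines against every array of cells that were not. All 8 arrays of the series entered, 4 with and 4 without IL-4/IL-13, from 4 groups of 2 arrays, all labelled 6 h. The groups were untreated cells, cells exposed to IFN gamma/LPS, cells exposed to IL4/IL13 and cells exposed to LPS/IL4/IL13. LPS, lipopolysaccharide from the outer membrane of Gram-negative bacteria, is detected by the receptor encoded by Tlr4. The strain, genotype, sex and age of the mice, the cytokine doses and how the macrophages were grown were not given in the sources used here. Whether both arrays of a group stem from separate cultures or from separate animals is not stated either, so p-values reflect only the spread among these arrays, and that spread could be technical.

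IL-4 and IL-13 bind receptors that share the IL-4 receptor alpha chain, activate JAK kinases and lead to phosphorylation of STAT6, which enters the nucleus and binds DNA at palindromic sites. In macrophages this pathway is known for alternative activation, a state with high arginase, lectin receptors and chemokines that attract eosinophils and T cells. LPS acts through Toll-like receptors on NF-kB and interferon genes, and LPS and IFN-gamma are both known to oppose parts of the alternative programme.

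Gene expression was measured on Affymetrix mouse gene arrays, 1 sample per array. Values are log2 signals, so a difference of 1 is a doubling. The change without LPS is IL-4/IL-13 minus untreated, the change with LPS is LPS/IL-4/IL-13 minus IFN-gamma/LPS, and the main effect is the mean of both. These comparisons are called the arms without and with LPS, and they share no array. IFN-gamma was given only in the group that served as the LPS reference, so in the arm with LPS the presence of IL-4/IL-13 and the absence of IFN-gamma cannot be told apart. The main effect, as the mean of both arms, shares this limit, and the arm without LPS does not. A gene was called when its limma p-value, adjusted over all 19938 named genes, was under 0.05. It is termed consistent when the main effect and both arms were called in 1 direction, and opposite when both arms and their difference were called and the arms had different signs. Changes are log2 values, given as estimate ± standard error where an error is shown, each from 2 arrays against 2 for an arm.

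The arrays resembled each other in scale, with medians over all probe sets between 6.12 and 6.2. All 13 measured macrophage markers of 14 listed lay above the median of named genes in the untreated arrays, against 0 of 10 mast cell and basophil, 2 of 6 eosinophil, 6 of 14 neutrophil, 2 of 10 dendritic cell, 1 of 7 B lymphocyte, 1 of 9 T and NK cell, 6 of 12 fibroblast and 0 of 3 erythroid markers. In RNA from whole cultures, fewer cells of a type and less RNA per cell cannot be told apart.

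In the main effect 2019 genes (10.1% of those tested) were higher and 2175 (10.9%) lower in the groups with IL-4/IL-13. Without LPS, 1561 genes rose (7.83%) and 2459 fell (12.3%). With LPS, 2407 genes rose (12.1%) and 1519 fell (7.62%). The arms overlapped in part: 502 genes (2.52%) were consistently higher, which is 32.2% of those that rose without LPS and 20.9% of those that rose with it. Consistently lower were 528 genes (2.65%), 21.5% of those that fell without LPS and 34.8% of those that fell with it. A further 154 genes (0.772%) rose without LPS and fell with it, and 474 (2.38%) fell without LPS and rose with it. The difference between the arms was called for 4004 genes (20.1%). Across genes, which are not independent replicates, the changes of the arms had a Pearson correlation of 0.138 over 19938 genes.

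These counts moved with single arrays. Without untreated array 1 the genes that rose and fell without LPS numbered 806 and 1257, the consistent genes 330 higher and 301 lower, the opposite genes 333 and the called differences 2478. Without untreated array 2 the same counts were 838 and 1542 without LPS, 311 and 343 consistent, and 372 opposite. Without IL-4/IL-13 array 2 they were 872 and 1372 without LPS, with 335 consistently lower and 373 opposite. Genes that rose without LPS numbered 1005 without IL-4/IL-13 array 1, and genes that rose with LPS numbered 1558 without IFN-gamma/LPS array 1. Of the 1030 consistent genes, 0 changed sign in either arm when 1 array was left out. That result was fixed in advance, because the groups of every consistent gene did not overlap in either arm.

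A called main effect therefore often came from one arm. Of the 2019 higher genes, 24.9% were consistent, 22.1% were called in that direction only without LPS, 41.1% only with LPS and 7.53% in neither arm, and for 4.36% the arms were called in opposite directions. Of the 2175 lower genes these shares were 24.3%, 39%, 27.9%, 4.41% and 4.46%. Consistent genes were chosen for their changes, so their medians only describe size. The median was 0.59 without and 0.64 with LPS for the higher and -0.59 in each arm for the lower. Over all genes it was 0.07 without and 0.00 with LPS. Changes of at least 2-fold in both arms were found for 72 of the 502 higher and 29 of the 528 lower genes. The size of the change differed between the arms for 168 (33.5%) of the higher genes, 105 with the larger change with LPS and 63 without. It differed for 171 (32.4%) of the lower genes, 90 larger with LPS and 81 without.

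**Figure D1:**
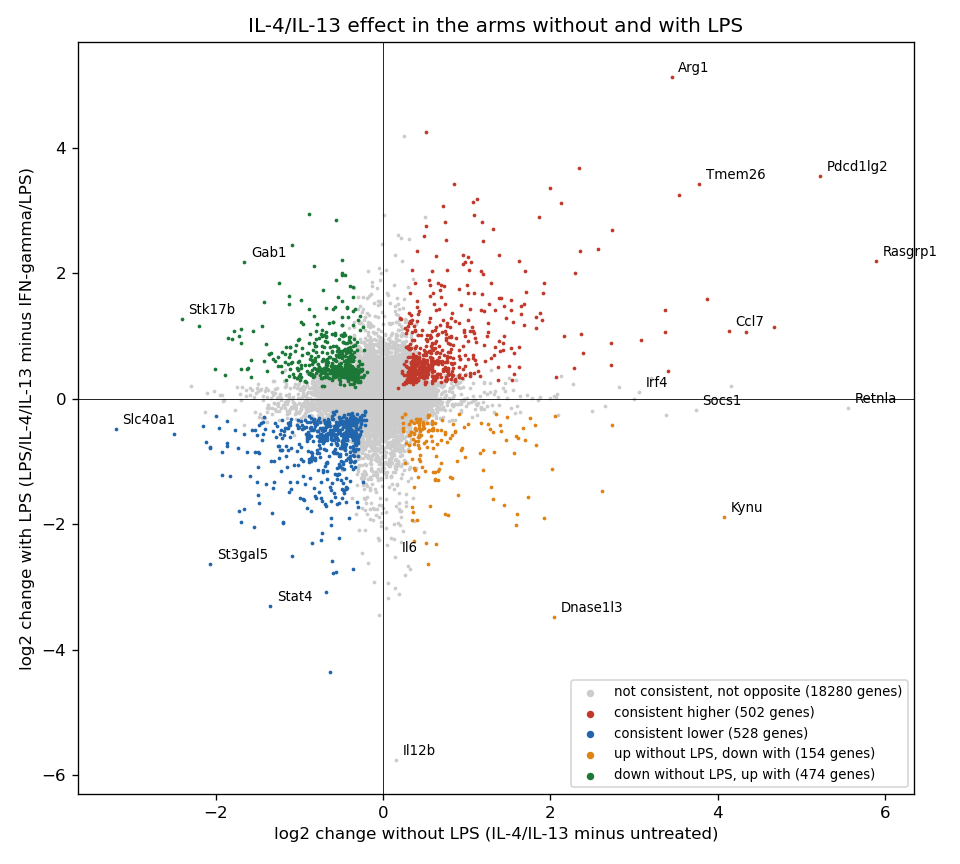
Each point is 1 of 19938 genes, placed by its log2 change without LPS (x axis) and with LPS (y axis), each the difference of 2 group means of 2 arrays. The 502 consistently higher and 528 consistently lower genes fill the upper right and lower left, the 154 and 474 opposite genes the other corners, and genes such as Retnla and Il12b lie near an axis.

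The genes with the largest changes in both arms included the checkpoint ligand Pdcd1lg2 and arginase Arg1. Pdcd1lg2, which encodes PD-L2, a ligand of the T cell inhibitory receptor PD-1, had log2 signals of 4.70 and 4.98 in the untreated arrays, 10.12 and 10 under IL-4/IL-13, 7.05 and 7.08 under IFN-gamma/LPS and 10.63 and 10.61 under LPS/IL-4/IL-13. Both IL-4/IL-13 groups lay above both groups without the cytokines, and IFN-gamma/LPS alone lay between. The change was 5.22 ± 0.11 without LPS and 3.56 ± 0.11 with LPS (adjusted p = 5.45e-11 and 1.84e-09). Arg1, which converts arginine to ornithine and urea, read 5 and 5.14 in the untreated arrays, 8.58 and 8.46 under IL-4/IL-13, 5.37 and 5.45 under IFN-gamma/LPS and 10.72 and 10.38 under LPS/IL-4/IL-13. Neither group without IL-4/IL-13 exceeded 5.45, and the highest values came with LPS and IL-4/IL-13 together. Its change was 3.45 ± 0.12 without LPS and 5.14 ± 0.12 with LPS (adjusted p = 5.34e-09 and 4.93e-10), a 19.6-fold main effect.

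Several of the other leading genes changed by nearly the same amount with and without LPS. Tmem26, a transmembrane protein gene, read 6.39 and 6.40 in the untreated arrays, 10.13 and 10.22 under IL-4/IL-13, 6.31 and 6.06 under IFN-gamma/LPS and 9.57 and 9.66 under LPS/IL-4/IL-13. Flt1, the VEGF receptor 1, read 5.68 and 5.95 in the untreated arrays, 9.50 and 9.21 under IL-4/IL-13, 7.44 and 7.40 under IFN-gamma/LPS and 10.73 and 10.62 under LPS/IL-4/IL-13. Egr2, a zinc finger transcription factor, read 8.42 and 8.57 in the untreated arrays, 11.24 and 11.23 under IL-4/IL-13, 7.70 and 7.82 under IFN-gamma/LPS and 10.36 and 10.54 under LPS/IL-4/IL-13. In these 3 genes every array with IL-4/IL-13 lay above every array without. Their changes were 3.78 ± 0.10 without LPS and 3.43 ± 0.10 with LPS for Tmem26, 3.54 ± 0.12 without LPS and 3.25 ± 0.12 with LPS for Flt1 and 2.74 ± 0.09 without LPS and 2.69 ± 0.09 with LPS for Egr2, and the difference between the arms was not called (adjusted p = 0.126, 0.277 and 0.825). Dusp4, a MAP kinase phosphatase, changed by 2.35 without and 2.37 with LPS. The lipase family gene Lipn changed by 2.58 without and 2.40 with LPS, and Glrx, a glutaredoxin that reduces glutathionylated proteins, by 1.71 without and 1.70 with LPS.

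Others kept their direction but not their size. Rasgrp1, an exchange factor that activates Ras, read 5.24 and 5.63 in the untreated arrays, 11.34 and 11.32 under IL-4/IL-13, 8.06 and 8.20 under IFN-gamma/LPS and 10.40 and 10.26 under LPS/IL-4/IL-13. Its level was higher in the IFN-gamma/LPS than in the untreated arrays, and its change was 5.89 ± 0.12 without LPS and 2.20 ± 0.12 with LPS. Plekhf1, a protein with PH and FYVE lipid-binding domains, read 6.10 and 5.89 in the untreated arrays, 8.20 and 8.47 under IL-4/IL-13, 5.42 and 5.16 under IFN-gamma/LPS and 9.10 and 8.83 under LPS/IL-4/IL-13. Its arrays without IL-4/IL-13 were lower with LPS than in untreated cells, and its change was larger with LPS, at 2.34 ± 0.14 without LPS and 3.67 ± 0.14 with LPS. Casp6, an effector caspase, changed by 1.99 without and 3.37 with LPS, the adaptor Bcar3 by 1.86 without and 2.90 with LPS and Zfp609 by 1.70 without and 2.04 with LPS. Differences between the arms were called for Rasgrp1, Plekhf1, Casp6 and Bcar3, and not for Zfp609 (adjusted p = 0.0722).

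**Figure D2:**
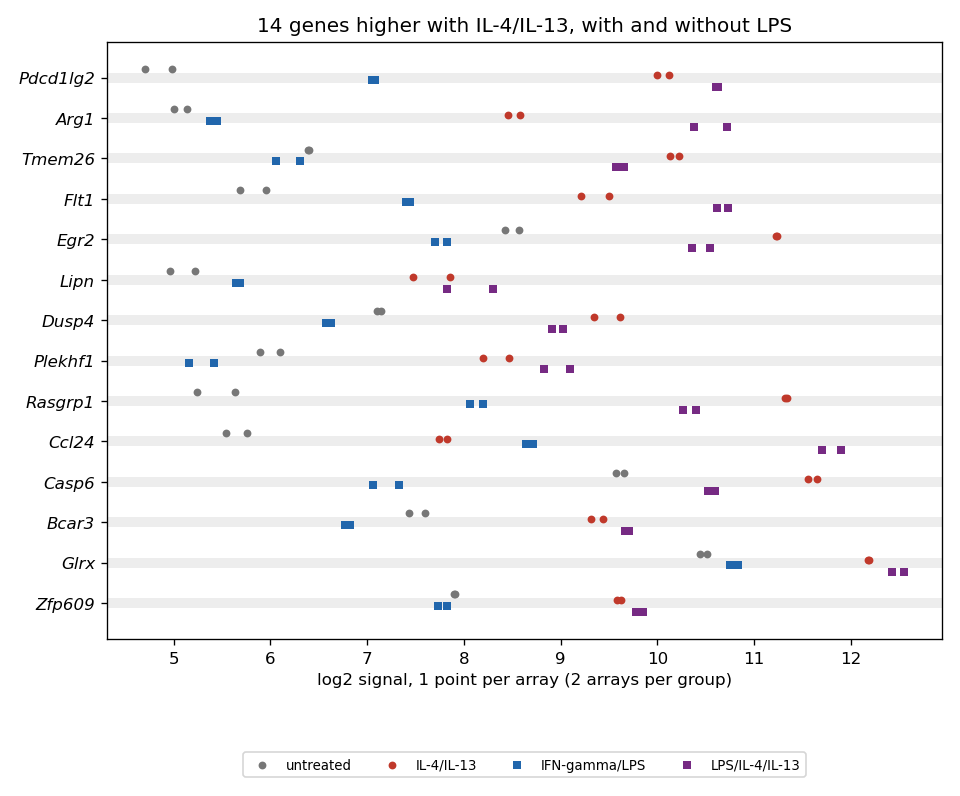
Log2 signals (x axis) of the 14 consistently higher genes with the largest smaller change of the arms, with 1 point per array, circles for the groups without LPS and squares for those with LPS. In each gene both IL-4/IL-13 points (red) lie right of both untreated points (grey), and both LPS/IL-4/IL-13 points (purple) right of both IFN-gamma/LPS points (blue).

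STAT6 binds a palindrome of TTC and GAA separated by 4 bases (TTCNNNNGAA). Promoter windows from RefSeq (GRCm38.p6, 250 bases before to 50 after the annotated start) were searched on both strands, which for a palindrome is 1 search. The 14 leading higher genes had windows for 10, of which 3 held the 4-base spacing, namely Pdcd1lg2, Tmem26 and Plekhf1. They are printed here up to the start because they show where the letters lie in genes that rose in both arms, with Ccl17 and Retnla, known STAT6 target genes chosen after their values were seen. Capitals mark the motif, and each runs 5′ to 3′ on the strand of the gene.
Pdcd1lg2 promoter: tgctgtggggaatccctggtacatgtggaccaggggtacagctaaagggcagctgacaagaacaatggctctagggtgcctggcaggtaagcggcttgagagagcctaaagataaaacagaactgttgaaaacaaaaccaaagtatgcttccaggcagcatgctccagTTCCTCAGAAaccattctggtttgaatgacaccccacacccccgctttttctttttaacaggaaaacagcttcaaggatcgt
Tmem26 promoter: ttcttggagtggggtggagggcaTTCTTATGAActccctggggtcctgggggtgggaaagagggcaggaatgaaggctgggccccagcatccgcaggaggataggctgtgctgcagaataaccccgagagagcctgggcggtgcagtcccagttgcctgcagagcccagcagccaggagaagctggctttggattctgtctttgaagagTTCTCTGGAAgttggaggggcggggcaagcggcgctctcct
Plekhf1 promoter: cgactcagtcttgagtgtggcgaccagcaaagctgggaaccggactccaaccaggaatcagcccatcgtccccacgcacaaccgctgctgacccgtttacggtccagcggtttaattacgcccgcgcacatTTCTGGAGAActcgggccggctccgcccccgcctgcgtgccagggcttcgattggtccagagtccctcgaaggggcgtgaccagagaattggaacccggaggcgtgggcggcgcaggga
Ccl17 promoter: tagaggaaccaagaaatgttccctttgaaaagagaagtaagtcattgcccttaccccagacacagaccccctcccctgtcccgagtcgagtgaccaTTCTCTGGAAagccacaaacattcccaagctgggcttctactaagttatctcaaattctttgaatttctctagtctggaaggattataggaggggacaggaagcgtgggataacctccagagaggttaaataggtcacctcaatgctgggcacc
Retnla promoter: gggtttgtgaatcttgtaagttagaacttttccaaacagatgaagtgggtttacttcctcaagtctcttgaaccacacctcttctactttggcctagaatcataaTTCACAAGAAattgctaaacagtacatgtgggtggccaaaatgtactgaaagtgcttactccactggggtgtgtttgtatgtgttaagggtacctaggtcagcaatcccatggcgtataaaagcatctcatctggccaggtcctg
The windows lie at chr19:29410669-29410918 on the plus strand, chr10:68723496-68723745 plus, chr7:38227995-38228244 minus, chr8:94810203-94810452 plus and chr16:48842359-48842608 plus. The first base of the motif lay 82 bases before the start in Pdcd1lg2, 227 and 41 bases before it in Tmem26, 119 in Plekhf1, 154 in Ccl17 and 145 in Retnla. The 4-base spacing was in 7.29% of the 15614 tested genes with a window, in 7.79% of 411 consistently higher genes and in 7.16% of 419 consistently lower genes. The shares among consistent genes were thus near those of all genes, and a match describes letters in a window, not binding.

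A pair of neighbouring microRNA loci and their host transcript were among the consistently higher genes. Of 298 microRNA genes tested, 4 were consistently higher and 2 lower, smaller shares than the 2.52% and 2.65% of all genes. The host gene Mir99ahg read 9.12 and 8.89 in the untreated arrays, 10.61 and 10.45 under IL-4/IL-13, 8.17 and 8.15 under IFN-gamma/LPS and 9.66 and 9.49 under LPS/IL-4/IL-13, Mir99a 7.77 and 7.43 in the untreated arrays, 10.01 and 9.78 under IL-4/IL-13, 6.73 and 6.69 under IFN-gamma/LPS and 8.85 and 8.58 under LPS/IL-4/IL-13, and Mirlet7c-1 6.89 and 6.56 in the untreated arrays, 8.78 and 8.51 under IL-4/IL-13, 5.70 and 5.79 under IFN-gamma/LPS and 7.78 and 7.39 under LPS/IL-4/IL-13. All 3 were higher with IL-4/IL-13 in both arms, by 1.52 ± 0.10 without LPS and 1.42 ± 0.10 with LPS for Mir99ahg, 2.29 ± 0.13 without LPS and 2.00 ± 0.13 with LPS for Mir99a and 1.92 ± 0.15 without LPS and 1.84 ± 0.15 with LPS for Mirlet7c-1. Of 3 other probe sets for Mir99ahg, 2 were also consistently higher. Mir125b-2, farther along the same transcript region, was called without LPS (0.93, adjusted p = 0.00183) and not with it (0.07, adjusted p = 0.869). On the X chromosome, Mir362 changed by 0.40 without and 1.24 with LPS and Mir501 by 0.57 without and 0.98 with LPS, and the call of Mir362 without LPS was lost without single arrays (adjusted p up to 0.104 without untreated array 1). The arrays measure RNA over the precursor locus, not the mature microRNA. These loci were chosen after their values were seen.

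Their mature sequences (RefSeq, GRCm38.p6) are given with the seed, bases 2 to 8, in capitals, because the seed sets which messages a microRNA pairs with.
miR-99a-5p: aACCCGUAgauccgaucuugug
let-7c-5p: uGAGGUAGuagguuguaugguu
miR-125b-5p: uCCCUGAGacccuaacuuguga
miR-362-5p: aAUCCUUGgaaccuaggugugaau
miR-501-5p: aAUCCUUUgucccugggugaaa
The first lies at chr16:77598940-77598961 on the plus strand, let-7c-5p at chr16:77599672-77599693 plus and miR-125b-5p at chr16:77646279-77646300 plus, so the first bases of miR-99a-5p and let-7c-5p are 732 bases apart. miR-362-5p lies at chrX:7242019-7242042 and miR-501-5p at chrX:7241307-7241328, both on the minus strand. No seed was shared in full among the 5 sequences, but those of miR-362-5p and miR-501-5p differed only at base 8.

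The list of IL-4/IL-13 and STAT6 target genes had the largest share of consistent members of the 36 lists. Of its 41 measured members (of 44), 24 were consistently higher, 0 consistently lower and 3 opposite, and the median change was 1.46 without and 0.70 with LPS, against 0.07 and 0.00 over all genes. Over all genes 2.52% were consistently higher and 2.65% lower, so a list of the sizes used here would hold about 0 to 1 such genes per direction at that share, and counts of 0 or 1 are given only as a description. The list was compiled from genes known to respond to IL-4, with earlier results of these data in view. Beside Pdcd1lg2, Arg1, Flt1, Egr2 and Rasgrp1, the named markers behaved as follows. Chil3, a chitinase-like protein, read 5.33 and 5.29 in the untreated arrays, 6.68 and 6.14 under IL-4/IL-13, 5.16 and 4.94 under IFN-gamma/LPS and 6.17 and 5.86 under LPS/IL-4/IL-13. Both of its IL-4/IL-13 groups lay above both others, with changes of 1.10 without and 0.96 with LPS. Mrc1, the mannose receptor, was bright in every group at 11.80 and 11.73 in the untreated arrays, 12.47 and 12.50 under IL-4/IL-13, 10.90 and 11 under IFN-gamma/LPS and 12.31 and 12.09 under LPS/IL-4/IL-13. It was higher with IL-4/IL-13 by 0.72 without and 1.25 with LPS, and E-cadherin, Cdh1, by 1.08 without and 1.70 with LPS. Of the opposite members, Ppargc1b, a coactivator of mitochondrial genes, changed by 2.62 without and -1.47 with LPS, and the histone demethylase Kdm6b by 0.61 without and -1.28 with LPS (for Kdm6b, call without LPS lost at adjusted p = 0.0532 without IL-4/IL-13 array 2).

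Some classic targets rose only in the arm without LPS. Retnla, a secreted marker of alternative activation, read 4.67 and 4.70 in the untreated arrays, 10.15 and 10.33 under IL-4/IL-13, 4.99 and 4.29 under IFN-gamma/LPS and 4.39 and 4.60 under LPS/IL-4/IL-13. Only the arrays with IL-4/IL-13 and no LPS were high, so its change of 5.55 ± 0.19 without LPS stood against -0.14 ± 0.19 with LPS. The transcription factor Irf4 had the same form, at 6.76 and 6.37 in the untreated arrays, 9.65 and 9.59 under IL-4/IL-13, 6.11 and 5.89 under IFN-gamma/LPS and 6.26 and 5.96 under LPS/IL-4/IL-13. Its change was 3.06 ± 0.15 without and 0.11 ± 0.15 with LPS. Both had a called main effect, and both differed between the arms (adjusted p = 9.35e-08 for Retnla and 1.4e-06 for Irf4).

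In another form, IFN-gamma/LPS alone already reached or exceeded the level seen under IL-4/IL-13. Socs1, a feedback inhibitor of JAK signalling, read 6.72 and 6.36 in the untreated arrays, 10.28 and 10.28 under IL-4/IL-13, 10.40 and 10.56 under IFN-gamma/LPS and 10.18 and 10.42 under LPS/IL-4/IL-13. All 6 treated arrays lay between 10.18 and 10.56 and only the untreated arrays were low, which gave differences of 3.74 without and -0.18 with LPS. The basic leucine zipper factor Nfil3 (3 without and -0.01 with LPS) and the cholesterol hydroxylase Ch25h (1.55 without and 0.14 with LPS) were likewise called without LPS only. Cd274, which encodes PD-L1, read 8.43 and 8.26 in the untreated arrays, 10.39 and 10.38 under IL-4/IL-13, 12.61 and 12.65 under IFN-gamma/LPS and 12.78 and 12.57 under LPS/IL-4/IL-13. Its differences were 2.04 without and 0.04 with LPS, so of the PD-1 ligands Pdcd1lg2 rose in both arms and Cd274 was called without LPS only.

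**Figure D3:**
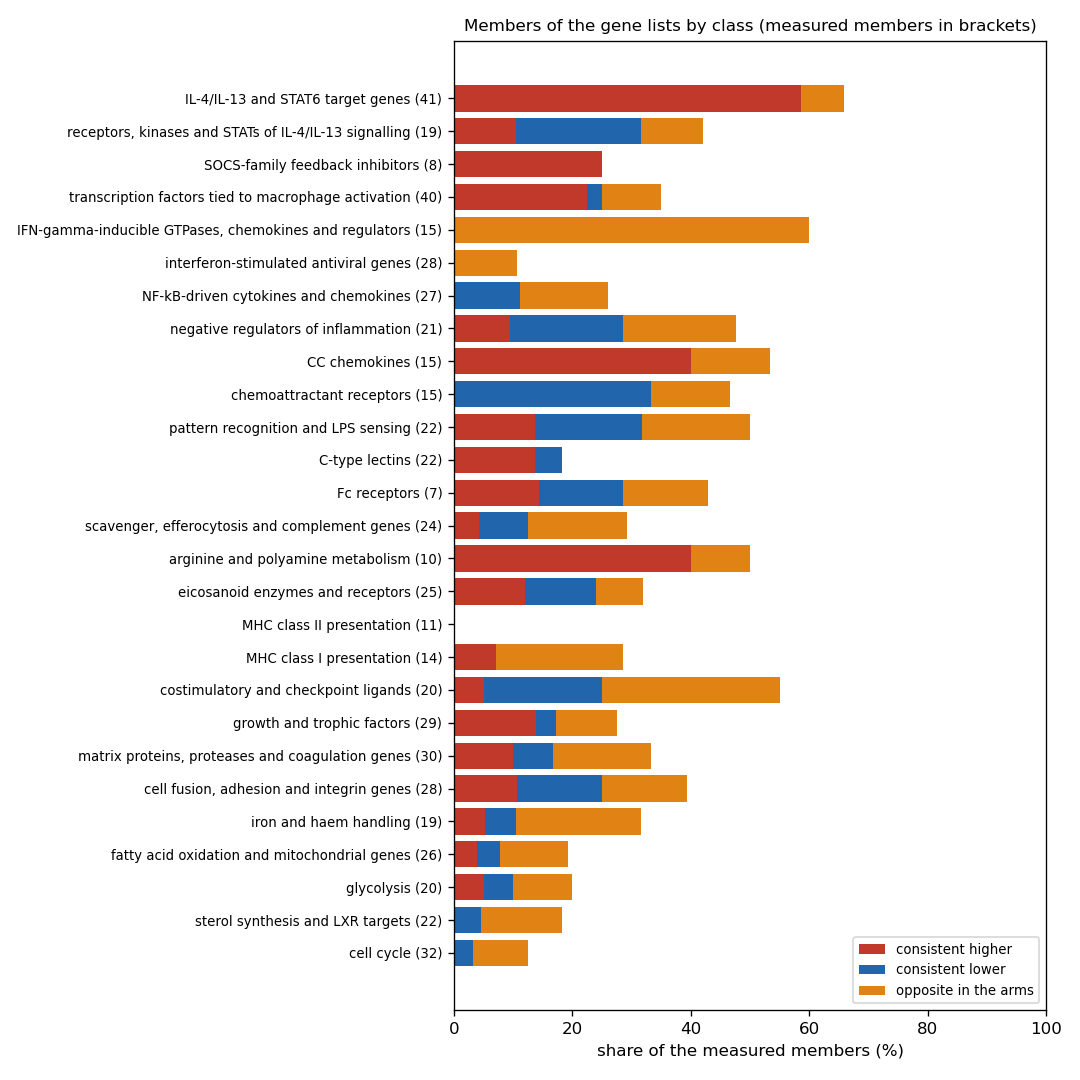
Bars give, for 27 lists of genes, the share (x axis, percent) of measured members that were consistently higher, consistently lower or opposite, with the number measured in brackets. The STAT6 target list has 24 of 41 members consistently higher, the IFN-gamma-inducible list has 9 of 15 opposite, and MHC class II has 0 in any class.

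Receptor and signalling genes of the pathway moved in both directions. Of 19 measured, 5 rose and 8 fell without LPS, 5 rose and 6 fell with LPS, and 2 were consistently higher, 4 consistently lower and 2 opposite. Among all called genes, 38.8% were higher without and 61.3% higher with LPS. Il4ra, the shared receptor chain, read 10.37 and 10.37 in the untreated arrays, 10.71 and 10.80 under IL-4/IL-13, 11.93 and 11.91 under IFN-gamma/LPS and 12.69 and 12.76 under LPS/IL-4/IL-13. It was higher in the IFN-gamma/LPS than in the untreated arrays, and higher again with IL-4/IL-13, by 0.39 ± 0.06 without LPS and 0.81 ± 0.06 with LPS. Il13ra1, the chain it pairs with for IL-13, read 7.58 and 7.43 in the untreated arrays, 6.08 and 6.07 under IL-4/IL-13, 10.69 and 10.66 under IFN-gamma/LPS and 10.43 and 10.19 under LPS/IL-4/IL-13. It was lower with IL-4/IL-13 in each arm, by -1.43 ± 0.10 without LPS and -0.36 ± 0.10 with LPS. The phosphatase Ptpn1 was higher (0.43 without and 0.56 with LPS) and the phosphatase Ptpn6 lower (-0.43 without and -0.66 with LPS). Stat6 itself changed by -0.32 without and -0.23 with LPS and Stat3 by -0.26 without and -0.41 with LPS. Single arrays ended some of these calls. The call of Stat6 with LPS was lost on leaving out any 1 of 7 arrays, and also after median centring or without the mean-variance trend. Stat6 without LPS was lost for either of 2 arrays. Stat3 without LPS was lost for any 1 of 3 arrays, Ptpn1 without LPS for either of 2 and Il13ra1 with LPS for any 1 of 3. The docking protein Gab1 was opposite (-1.66 without and 2.19 with LPS), as was the lipid phosphatase Inpp5d (-0.53 without and 0.56 with LPS).

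Feedback inhibitors of the SOCS family included Socs2 and Cish, which were consistently higher. Of 8 measured, 3 rose and 1 fell without LPS, 5 rose and 1 fell with LPS, and 5 were higher in the main effect, against 10.1% of all genes. Socs2 read 5.56 and 5.26 in the untreated arrays, 9.30 and 9.26 under IL-4/IL-13, 6.74 and 6.94 under IFN-gamma/LPS and 8.65 and 8.20 under LPS/IL-4/IL-13. Cish read 5.50 and 5.44 in the untreated arrays, 8.81 and 8.86 under IL-4/IL-13, 9.26 and 9.16 under IFN-gamma/LPS and 10.29 and 10.25 under LPS/IL-4/IL-13. Both IL-4/IL-13 groups of Socs2 lay above both groups without, while Cish under IFN-gamma/LPS exceeded Cish under IL-4/IL-13. The changes were 3.87 ± 0.15 without LPS and 1.58 ± 0.15 with LPS for Socs2 and 3.37 ± 0.09 without LPS and 1.06 ± 0.09 with LPS for Cish. A further probe set for Socs2 was also consistently higher, by less, at 1.69 without and 0.815 with LPS. Socs7, at -0.10 without and -0.52 with LPS, was called lower with LPS only.

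Among transcription factors tied to macrophage activation, 9 of 40 measured were consistently higher and 1 lower. Myc, a driver of growth genes, read 7.42 and 7.52 in the untreated arrays, 8.41 and 8.68 under IL-4/IL-13, 6.75 and 6.87 under IFN-gamma/LPS and 9.87 and 10.04 under LPS/IL-4/IL-13. It was lowest with IFN-gamma/LPS and highest with LPS and IL-4/IL-13, giving 1.07 ± 0.11 without LPS and 3.15 ± 0.11 with LPS. Tfec, a relative of MITF, changed by 1.65 without and 1.35 with LPS, the AP-1 family members Batf3 by 1.83 without and 1.30 with LPS and Fosl2 by 1.06 without and 1.15 with LPS. Irf1, a mediator of interferon responses, was opposite at 1.20 without and -1.14 with LPS. A further probe set for it changed less, by 0.335 without and -0.60 with LPS. Cebpb was opposite in the other direction at -0.42 without and 0.76 with LPS. Its call without LPS was lost without untreated array 1, where the change was -0.35.

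CC chemokines rose more often than they fell, 6 against 3 without and 9 against 1 with LPS. Of all genes, 7.83% rose and 12.3% fell without LPS, and 12.1% rose and 7.62% fell with LPS. Of 15 measured, 6 were consistently higher (Ccl2, Ccl7, Ccl8, Ccl17 and Ccl24 among them) and 0 lower, with a median change of 0.11 without and 0.73 with LPS. Ccl24, an eotaxin that attracts eosinophils, read 5.76 and 5.54 in the untreated arrays, 7.82 and 7.74 under IL-4/IL-13, 8.64 and 8.71 under IFN-gamma/LPS and 11.90 and 11.70 under LPS/IL-4/IL-13. The highest arrays were those with LPS and IL-4/IL-13, above IFN-gamma/LPS alone by 3.12. Ccl17, a ligand of the T cell receptor CCR4, read 5.30 and 5.95 in the untreated arrays, 6.77 and 6.88 under IL-4/IL-13, 6.70 and 6.80 under IFN-gamma/LPS and 8.79 and 8.68 under LPS/IL-4/IL-13. Its changes were 1.20 without and 1.99 with LPS, and those of Ccl8 were 1.28 without and 1.85 with LPS. The monocyte attractants Ccl2 (2.37 without and 1.03 with LPS) and Ccl7 (4.13 without and 1.08 with LPS) changed more without LPS, where their starting level was lower. Ccl22, the other CCR4 ligand, read 5.67 and 5.61 in the untreated arrays, 5.69 and 5.80 under IL-4/IL-13, 10.46 and 10.54 under IFN-gamma/LPS and 9.12 and 9.17 under LPS/IL-4/IL-13. It was not called with the cytokines alone (0.10, adjusted p = 0.465) and was lower with LPS (-1.35). Of the inflammatory chemokines, Ccl4 was opposite at -0.56 without and 0.83 with LPS, and Ccl3, at -1.07 without and 0.04 with LPS, was called without LPS only.

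Genes of arginine and polyamine metabolism rose more often than they fell, 5 against 2 without and 6 against 1 with LPS. The shares of all genes were 7.83% rising and 12.3% falling without LPS, and 12.1% rising and 7.62% falling with LPS. Of 10 measured members, 4 were consistently higher and 0 lower. Slc7a2, a cationic amino acid transporter that brings in arginine, read 6.28 and 6.14 in the untreated arrays, 10.58 and 10.52 under IL-4/IL-13, 11.40 and 11.40 under IFN-gamma/LPS and 12.51 and 12.43 under LPS/IL-4/IL-13. All 3 treated groups were far above untreated, with LPS/IL-4/IL-13 highest, and the changes were 4.34 ± 0.08 without LPS and 1.07 ± 0.08 with LPS. The transporter Slc7a1 changed by 0.78 without and 0.49 with LPS and spermidine synthase Srm by 1.03 without and 1.08 with LPS. Arg2, the mitochondrial arginase, was opposite at -0.56 without and 1.90 with LPS, with its call without LPS lost at adjusted p up to 0.229 without IL-4/IL-13 array 2. Nos2, the inducible nitric oxide synthase that competes for arginine, read 5.73 and 5.60 in the untreated arrays, 5.76 and 6.01 under IL-4/IL-13, 12.76 and 12.73 under IFN-gamma/LPS and 12.34 and 12.44 under LPS/IL-4/IL-13. It was high with IFN-gamma/LPS and with LPS/IL-4/IL-13, and its difference was 0.22 without LPS (adjusted p = 0.148) and -0.35 with LPS (adjusted p = 0.0256, up to 0.136 without IFN-gamma/LPS array 1).

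Receptors for sugars and antibodies went both ways. Of 22 C-type lectins measured, 3 were consistently higher and 1 lower, with 5 rising and 7 falling without LPS and 6 rising and 2 falling with LPS. Called genes as a whole leaned in this way too, with 38.8% of them higher without and 61.3% higher with LPS. Clec7a, the beta-glucan receptor dectin-1, changed by 0.91 ± 0.07 without LPS and 1.22 ± 0.07 with LPS and Cd209a by 0.56 without and 0.76 with LPS. Clec4n, which encodes dectin-2, was lower by -2.12 without and -0.69 with LPS. Of 7 Fc receptor genes, 1 was consistently higher, 1 lower and 1 opposite. Fcgr2b, the inhibitory receptor for IgG, read 10.89 and 10.83 in the untreated arrays, 12.38 and 12.39 under IL-4/IL-13, 11.16 and 11.14 under IFN-gamma/LPS and 12.74 and 12.71 under LPS/IL-4/IL-13. Both IL-4/IL-13 groups lay above both others, and the change was 1.52 ± 0.06 without LPS and 1.57 ± 0.06 with LPS. Fcgr4, an activating receptor, changed by -0.33 without and -0.30 with LPS (without LPS, adjusted p up to 0.0554 without untreated array 1), and the lipoprotein receptor Olr1 by 2.40 without and 0.72 with LPS.

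Growth factor genes gave 4 consistently higher and 1 lower of 29 measured. Hbegf, an EGF receptor ligand, read 6.38 and 6.30 in the untreated arrays, 7.49 and 7.43 under IL-4/IL-13, 8.39 and 8.38 under IFN-gamma/LPS and 11.66 and 11.48 under LPS/IL-4/IL-13. The combination with LPS stood above all other groups, and the changes were 1.12 ± 0.09 without LPS and 3.19 ± 0.09 with LPS. Nrg1, a ligand of ErbB receptors, changed by 1.88 without and 1.38 with LPS, Pdgfa by 1.33 without and 1.42 with LPS and Igf1 by 0.41 without and 0.41 with LPS. Vegfa, the angiogenic factor, was lower, at 8.49 and 8.47 in the untreated arrays, 7.28 and 7.2 under IL-4/IL-13, 8.49 and 8.47 under IFN-gamma/LPS and 7.76 and 7.32 under LPS/IL-4/IL-13. It was lower with the cytokines in both arms, by -1.24 ± 0.13 without LPS and -0.94 ± 0.13 with LPS. Pdgfb was opposite, at -1.04 without and 0.85 with LPS, and so was Bmp2, at 0.63 without and -2.31 with LPS.

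Eicosanoid genes gave 4 higher and 8 lower of 25 without LPS and 8 higher and 3 lower with LPS. Called genes as a whole leaned likewise, with 38.8% of them higher without and 61.3% higher with LPS. Consistently higher were 3 and lower 3, and 2 were opposite. Ptgir, the prostacyclin receptor, rose by 1.44 ± 0.11 without LPS and 1.49 ± 0.11 with LPS. Ptger4, a receptor for prostaglandin E2, changed by -0.73 without and -1.64 with LPS, and Hpgds, a synthase of prostaglandin D2, by -1.96 without and -0.47 with LPS. Pla2g4a, which releases arachidonic acid, changed by 0.38 without and 1.08 with LPS (without LPS, adjusted p up to 0.273 without IL-4/IL-13 array 1). Pla2g7, a secreted hydrolase of platelet-activating factor, changed by -0.96 without and -0.42 with LPS (with LPS, adjusted p up to 0.0729 without IFN-gamma/LPS array 1).

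Matrix, coagulation and adhesion genes also went both ways. Of 30 matrix, protease and coagulation genes, 3 were consistently higher and 2 lower, and of 28 fusion, adhesion and integrin genes, 3 were higher and 4 lower. Coagulation factor F10 changed by 1.29 without and 0.65 with LPS, and thrombospondin, Thbs1, by -1.48 without and -0.86 with LPS. F7 changed by 0.74 without and 0.52 with LPS (with LPS, adjusted p up to 0.0807 without IFN-gamma/LPS array 2) and Tnc by -0.45 without and -0.89 with LPS (without LPS, up to 0.185 without untreated array 1). The cell fusion gene Ocstamp changed by 0.81 without and 0.57 with LPS and the adhesion molecule Alcam by -0.88 without and -0.36 with LPS. Pecam1 read 6.86 and 6.85 in the untreated arrays, 9.27 and 8.98 under IL-4/IL-13, 6.56 and 6.58 under IFN-gamma/LPS and 6.77 and 6.84 under LPS/IL-4/IL-13. It was high only under IL-4/IL-13 without LPS, and it was called there (2.27) but not with LPS (0.23, adjusted p = 0.196).

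The consistently lower genes were led by St3gal5, the sialyltransferase that makes the ganglioside GM3. It read 8.94 and 8.86 in the untreated arrays, 6.92 and 6.75 under IL-4/IL-13, 11.39 and 11.41 under IFN-gamma/LPS and 8.86 and 8.66 under LPS/IL-4/IL-13. Within each arm the IL-4/IL-13 arrays were the lower ones, by -2.06 ± 0.10 without LPS and -2.64 ± 0.10 with LPS (adjusted p = 5.59e-08 and 6.19e-09). Itga4, the integrin alpha-4 chain used in leukocyte adhesion, read 10.80 and 10.83 in the untreated arrays, 9.13 and 9.05 under IL-4/IL-13, 12.24 and 12.31 under IFN-gamma/LPS and 10.54 and 10.44 under LPS/IL-4/IL-13. Its level was higher under IFN-gamma/LPS than in untreated cells, and higher under LPS/IL-4/IL-13 than under IL-4/IL-13. In each arm it was lower with IL-4/IL-13, by -1.73 ± 0.07 without LPS and -1.78 ± 0.07 with LPS. Stat4, the transducer of IL-12 signals, read 6.62 and 6.37 in the untreated arrays, 5.08 and 5.21 under IL-4/IL-13, 8.90 and 9.14 under IFN-gamma/LPS and 5.67 and 5.77 under LPS/IL-4/IL-13. The arrays with IL-4/IL-13 lay below both groups without, and the change was larger with LPS, at -1.35 ± 0.12 without LPS and -3.30 ± 0.12 with LPS.

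Immune receptors were among the rest of these 14. Pilra, an inhibitory paired immunoglobulin-like receptor, changed by -1.70 without and -1.97 with LPS, and the activating Pilrb1 by -1.31 without and -1.43 with LPS. Gpr34, a receptor for lysophosphatidylserine, read 6.72 and 6.67 in the untreated arrays, 5.03 and 5.36 under IL-4/IL-13, 6.60 and 6.59 under IFN-gamma/LPS and 5.15 and 4.97 under LPS/IL-4/IL-13. Mertk, a receptor tyrosine kinase for uptake of apoptotic cells, read 10.75 and 10.72 in the untreated arrays, 9.22 and 9.23 under IL-4/IL-13, 11.26 and 11.40 under IFN-gamma/LPS and 10.04 and 9.97 under LPS/IL-4/IL-13. Both were lower with IL-4/IL-13 with no overlap, by -1.50 ± 0.13 without LPS and -1.53 ± 0.13 with LPS for Gpr34 and -1.51 ± 0.08 without LPS and -1.32 ± 0.08 with LPS for Mertk. Phlpp1, a phosphatase of Akt, changed by -1.54 without and -2.04 with LPS and the telomere protein Pot1b by -1.66 without and -1.76 with LPS. The transcription factors Trps1 and St18 changed by -1.49 without and -1.67 with LPS and by -1.83 without and -1.24 with LPS, respectively. Fam102b (-1.40 without and -1.35 with LPS), Ppfibp2 (-1.32 without and -1.81 with LPS) and Stard8 (-1.30 without and -1.32 with LPS) completed the set.

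**Figure D4:**
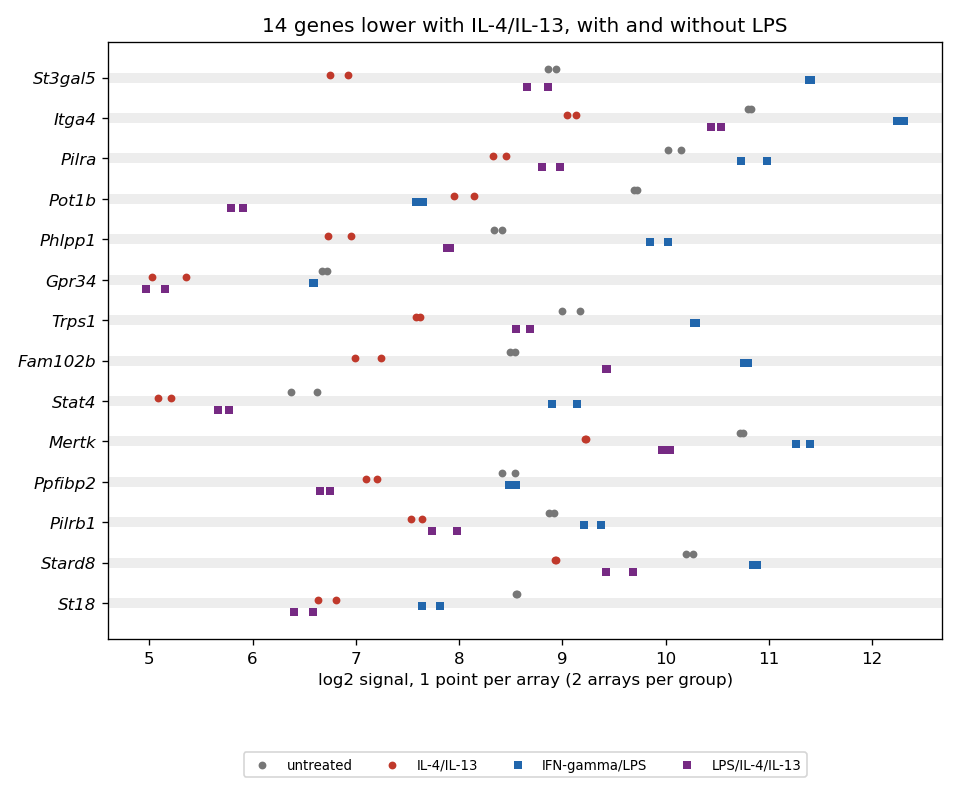
Log2 signals (x axis) of the 14 consistently lower genes with the largest smaller change of the arms, with 1 point per array. In each gene both IL-4/IL-13 points (red) lie left of both untreated points (grey), and both LPS/IL-4/IL-13 points (purple) left of both IFN-gamma/LPS points (blue), as for Stat4, whose arrays with IL-4/IL-13 lie between 5.08 and 5.77.

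Receptors for chemoattractants fell more often than they rose, 8 against 0 without and 8 against 5 with LPS. Of all genes, 12.3% fell and 7.83% rose without LPS, and 7.62% fell and 12.1% rose with LPS. Of 15 measured, 5 were consistently lower and 0 higher, and the median change was -0.52 without and -0.24 with LPS. P2ry13, a receptor for nucleotides, read 7.24 and 7.24 in the untreated arrays, 6.64 and 6.65 under IL-4/IL-13, 11.18 and 11.23 under IFN-gamma/LPS and 8.33 and 8.52 under LPS/IL-4/IL-13. It was highest under IFN-gamma/LPS, and lower with IL-4/IL-13 by -0.59 ± 0.09 without LPS and -2.78 ± 0.09 with LPS. Ccr2, the receptor for Ccl2, changed by -2.15 without and -0.43 with LPS, the atypical receptor Ccrl2 by -0.75 without and -0.64 with LPS and the complement receptors C5ar1 and C5ar2 by -0.58 without and -0.24 with LPS and by -0.52 without and -0.33 with LPS, respectively. With LPS, the call of Ccr2 was lost on leaving out any 1 of 5 arrays, and those of C5ar1 and C5ar2 any 1 of 6. The change was -0.24 for Ccr2 without LPS/IL-4/IL-13 array 2, and -0.135 and -0.26 for C5ar1 and C5ar2 without IFN-gamma/LPS array 2. Without LPS, that of C5ar2 was lost at adjusted p = 0.0566 without IL-4/IL-13 array 2. Ccr7, a homing receptor for lymph nodes, was not called without LPS (0.12, adjusted p = 0.54) and was lower with it (-2.24).

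Costimulatory and checkpoint ligands had Pdcd1lg2 as the one consistently higher gene. Of 20 measured, 4 were consistently lower and 1 higher. Cd80, a ligand of CD28, read 7.95 and 8.10 in the untreated arrays, 7.02 and 6.85 under IL-4/IL-13, 9.90 and 10.02 under IFN-gamma/LPS and 7.40 and 7.50 under LPS/IL-4/IL-13. It was lower with IL-4/IL-13 by -1.09 ± 0.10 without LPS and -2.51 ± 0.10 with LPS, and a further probe set for it was also consistently lower. Vsir, an inhibitory surface protein, read 12.05 and 12 in the untreated arrays, 11.48 and 11.45 under IL-4/IL-13, 11.16 and 11.21 under IFN-gamma/LPS and 8.37 and 8.46 under LPS/IL-4/IL-13. The combination with LPS was lowest, with changes of -0.56 ± 0.07 without LPS and -2.77 ± 0.07 with LPS. Icosl changed by -0.53 without and -1.66 with LPS and Cd48 by -0.59 without and -0.83 with LPS (for Icosl without LPS, adjusted p up to 0.0522 without IL-4/IL-13 array 2). Cd86, the other CD28 ligand, was opposite at 1.33 without and -0.85 with LPS. Tnfsf4, the ligand of OX40, was called with LPS only (-2.72).

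Inflammatory cytokines and chemokines driven by NF-kB were in part lower in the groups with IL-4/IL-13. Of 27 measured, 4 rose and 9 fell without LPS, and 5 rose and 11 fell with LPS. Among all called genes, 38.8% were higher without and 61.3% higher with LPS. In this list 3 members were consistently lower (Tnf, Il18 and Ebi3), 0 consistently higher and 4 opposite. Tnf read 8.25 and 8.29 in the untreated arrays, 7.64 and 7.46 under IL-4/IL-13, 12.94 and 12.93 under IFN-gamma/LPS and 12.15 and 12.30 under LPS/IL-4/IL-13. It was high in both groups given LPS, and lower with IL-4/IL-13 in each arm, by -0.72 ± 0.08 without LPS and -0.71 ± 0.08 with LPS. Il18 changed by -1.12 without and -1.49 with LPS and Ebi3 by -0.73 without and -0.67 with LPS. Il12b, the p40 chain of IL-12 and IL-23, read 5.30 and 5.35 in the untreated arrays, 5.55 and 5.41 under IL-4/IL-13, 12.29 and 12.31 under IFN-gamma/LPS and 6.49 and 6.59 under LPS/IL-4/IL-13. Only the IFN-gamma/LPS arrays were high, so its change was 0.15 ± 0.10 without and -5.76 ± 0.10 with LPS. Il6 read 3.41 and 3.40 in the untreated arrays, 3.52 and 3.57 under IL-4/IL-13, 12.30 and 12.30 under IFN-gamma/LPS and 10.02 and 9.52 under LPS/IL-4/IL-13, and its change with LPS was -2.53 ± 0.14. Neither Il12b nor Il6 was called without LPS, and with LPS the reference also received IFN-gamma. Il1b was lower without LPS (-2.11) and not called with it (0.10, adjusted p = 0.698). Cxcl3, a neutrophil attractant, was higher with LPS (2.57).

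Negative regulators of inflammation had 2 consistently higher and 4 lower members of 21. The RNA-degrading regulators Zc3h12a and Zfp36 were higher, by 1.02 without and 1.25 with LPS and by 0.39 without and 0.43 with LPS, respectively. Nfkbiz, an inhibitor-like NF-kB protein, read 9.11 and 9.10 in the untreated arrays, 7.10 and 6.97 under IL-4/IL-13, 11.77 and 11.71 under IFN-gamma/LPS and 10.94 and 11.01 under LPS/IL-4/IL-13. It was lower with IL-4/IL-13 by -2.07 ± 0.08 without LPS and -0.77 ± 0.08 with LPS, and the nuclear receptor Nr4a1 by -1.50 ± 0.12 without LPS and -1.08 ± 0.12 with LPS. Il10, an anti-inflammatory cytokine, differed by 0.34 without LPS (adjusted p = 0.11) and 0.98 with LPS (adjusted p = 0.000234).

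Genes for sensing microbes were mixed. Of 22 measured, 3 were consistently higher, 4 lower and 4 opposite. Tlr4, the LPS receptor, read 9.60 and 9.67 in the untreated arrays, 10.10 and 9.99 under IL-4/IL-13, 8.80 and 8.68 under IFN-gamma/LPS and 10.45 and 10.16 under LPS/IL-4/IL-13. It was lower under IFN-gamma/LPS than in untreated cells and higher with IL-4/IL-13 in each arm, by 0.41 ± 0.10 without LPS and 1.56 ± 0.10 with LPS (without LPS, adjusted p up to 0.134 without untreated array 1). Its relative Cd180 was lower by -0.75 without and -0.47 with LPS, and the peptidoglycan sensor Nod1 by -0.48 without and -1 with LPS. The inflammasome sensor Nlrp3 changed by -1.10 without and -0.32 with LPS (with LPS, adjusted p up to 0.11 without IFN-gamma/LPS array 1). Tlr2, Tlr13 and the LPS co-receptor Cd14 were opposite, at -1.70 without and 1.11 with LPS, -1.81 without and 0.95 with LPS and -1.42 without and 0.59 with LPS, respectively.

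In the metabolic and cell cycle lists, calls in single arms outnumbered consistent ones, as they did over all genes. Of all called genes, 38.8% were higher without LPS and 61.3% with LPS. The lists below shared this lean, apart from glycolysis with LPS. Of 32 cell cycle genes, 0 rose and 11 fell without LPS and 8 rose and 4 fell with LPS. Of 26 genes of fatty acid oxidation and mitochondria, 3 rose and 5 fell without and 10 rose and 3 fell with LPS, and of 19 iron and haem genes, 2 rose and 8 fell without and 7 rose and 3 fell with LPS. Sterol and LXR genes gave 3 higher and 6 lower of 22 without and 9 and 3 with LPS, and glycolysis genes 4 and 5 of 20 without and 3 and 8 with LPS. Consistently higher and lower members, near the shares of all genes, numbered 1 and 1 of 19 for iron and haem, 1 and 1 of 26 for fatty acid oxidation and mitochondria, 1 and 1 of 20 for glycolysis, 0 and 1 of 22 for sterol and LXR genes, and 0 and 1 of 32 for the cell cycle. Slc40a1, the iron exporter ferroportin, read 10.09 and 10.11 in the untreated arrays, 6.95 and 6.86 under IL-4/IL-13, 5.60 and 5.54 under IFN-gamma/LPS and 5.19 and 4.98 under LPS/IL-4/IL-13. It was highest in untreated cells and lower with IL-4/IL-13 in both arms, by -3.19 ± 0.11 without LPS and -0.48 ± 0.11 with LPS. Hfe changed by 0.67 without and 0.58 with LPS. Mylip, which targets the LDL receptor for degradation, changed by -1.20 ± 0.08 without LPS and -1.96 ± 0.08 with LPS, the peroxisomal oxidase Acox3 by -0.69 without and -0.64 with LPS and the cell cycle inhibitor Cdkn1b by -0.58 without and -0.63 with LPS (its other probe set was not consistent). Fh1, a fumarase, was called with LPS only (1.79).

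For opposite genes the main effect averages changes of different sign, so the arms are given. Dnase1l3, a secreted DNase, read 4.90 and 4.85 in the untreated arrays, 6.86 and 6.97 under IL-4/IL-13, 9.16 and 9.35 under IFN-gamma/LPS and 5.75 and 5.81 under LPS/IL-4/IL-13. Both IL-4/IL-13 and IFN-gamma/LPS arrays lay far above untreated, and the combination of LPS and IL-4/IL-13 lay between. Kynu, a kynureninase of tryptophan breakdown, had the same form at 5.09 and 5.05 in the untreated arrays, 9.27 and 9.02 under IL-4/IL-13, 8.45 and 8.59 under IFN-gamma/LPS and 6.70 and 6.56 under LPS/IL-4/IL-13. The changes were 2.04 ± 0.11 without LPS and -3.48 ± 0.11 with LPS for Dnase1l3 and 4.08 ± 0.11 without LPS and -1.89 ± 0.11 with LPS for Kynu. Tcf7l2, a Wnt pathway factor, changed by 1.93 without and -1.90 with LPS and the phospholipase Ddhd1 by 1.58 without and -2.02 with LPS. Gab1, a docking protein for receptor signals, read 9.99 and 9.89 in the untreated arrays, 8.27 and 8.29 under IL-4/IL-13, 8.26 and 8.31 under IFN-gamma/LPS and 10.57 and 10.37 under LPS/IL-4/IL-13. Both IL-4/IL-13 and IFN-gamma/LPS arrays lay below untreated, and the combination of LPS and IL-4/IL-13 lay above it, giving -1.66 ± 0.09 without LPS and 2.19 ± 0.09 with LPS.

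Other genes of the second orientation were high in untreated cells. Hmox1, haem oxygenase, read 11.37 and 11.31 in the untreated arrays, 9.92 and 9.91 under IL-4/IL-13, 9.02 and 8.85 under IFN-gamma/LPS and 10.47 and 10.48 under LPS/IL-4/IL-13. Abca1, the cholesterol exporter, read 11.32 and 11.30 in the untreated arrays, 10.05 and 10.08 under IL-4/IL-13, 7.91 and 7.95 under IFN-gamma/LPS and 9.84 and 9.71 under LPS/IL-4/IL-13. Both were lowered by IL-4/IL-13 alone, and with LPS both were above IFN-gamma/LPS, with changes of -1.43 without and 1.54 with LPS for Hmox1 and -1.25 without and 1.84 with LPS for Abca1. The kinase Stk17b changed by -2.40 without and 1.27 with LPS, Pstpip1 by -1.45 without and 1.17 with LPS and Lhfpl2 by -2.21 without and 1.16 with LPS.

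**Figure D5:**
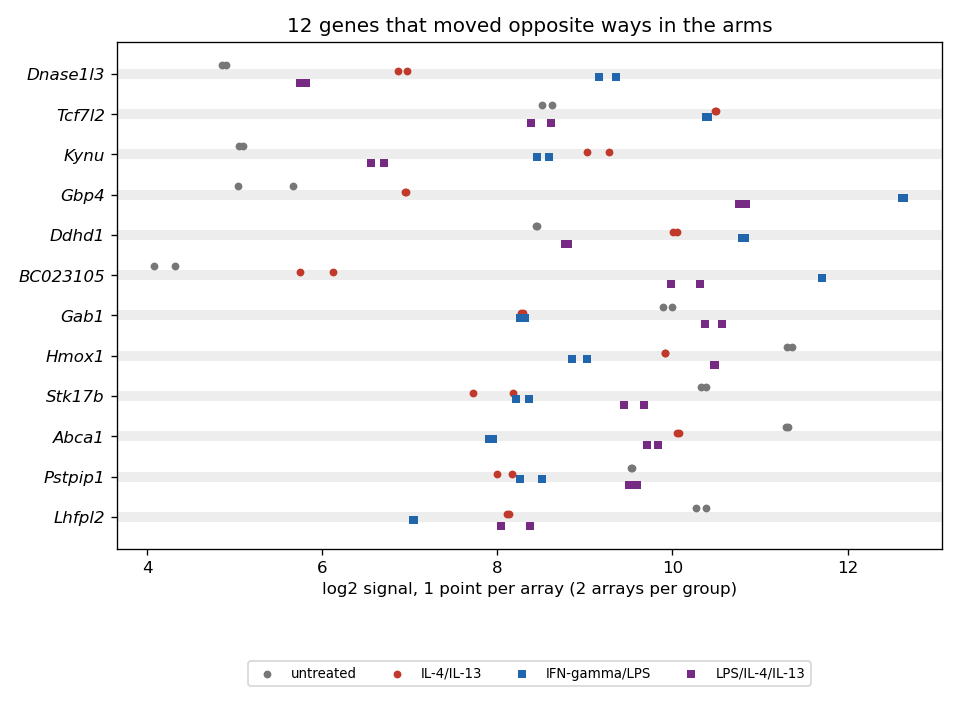
Log2 signals (x axis) of 12 genes called in opposite directions in the arms, 6 for each orientation, with 1 point per array. For the first 6 genes IL-4/IL-13 (red) lies right of untreated (grey) and LPS/IL-4/IL-13 (purple) left of IFN-gamma/LPS (blue), and for the last 6 the order is turned.

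Genes induced by IFN-gamma made up the list with the most opposite members, 9 of 15 measured. All 9 rose without and fell with LPS, as did 0.772% of all genes. Without LPS 10 rose and 1 fell, with a median of 0.93, and with LPS 0 rose and 13 fell, with a median of -0.66. The shares of all genes were 7.83% rising and 12.3% falling without LPS, and 12.1% rising and 7.62% falling with LPS. The guanylate-binding protein Gbp4 read 5.04 and 5.66 in the untreated arrays, 6.95 and 6.96 under IL-4/IL-13, 12.62 and 12.65 under IFN-gamma/LPS and 10.84 and 10.76 under LPS/IL-4/IL-13. It was high in both groups with LPS and highest where IFN-gamma was present. Gbp8 changed by 1.31 without and -1.60 with LPS, BC023105, named as the annotation gives it, by 1.73 without and -1.56 with LPS, and Ido1, which degrades tryptophan, was called with LPS only (0.21 without and -1.88 with LPS). In the arm with LPS these values are where IL-4/IL-13 and the lack of IFN-gamma cannot be told apart, whereas the rises without LPS were measured with no IFN-gamma on either side. Of 28 interferon-stimulated antiviral genes 0 were consistent and 3 opposite. Without LPS 8 of them rose and 7 fell, and with LPS 0 rose and 3 fell. Irf7, among those that rose, was called without LPS only (1.33 against 0.08). Of the chemokines of this programme, Cxcl9 was called with LPS only (-0.14 without and -0.69 with LPS) and Cxcl10 without LPS only (-1.07 without and -0.10 with LPS).

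MHC class I presentation genes rose in the arm without LPS, 9 of 14 measured with 0 falling, against 7.83% of all genes. With LPS 1 rose and 3 fell, and 3 were opposite, Tap1 among them. Of 11 measured class II genes 1 rose and 0 fell without LPS, 4 rose and 1 fell with LPS, and 0 were consistent. Ciita, their master regulator, was lower with LPS (-0.82) and not called without it (-0.13, adjusted p = 0.438). Of the class I genes, the proteasome subunit Psmb10 was consistently higher, by 1.53 ± 0.08 without LPS and 0.81 ± 0.08 with LPS, and the peptide transporter Tap1 changed by 0.65 without and -0.51 with LPS.

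Macrophage markers went both ways. Of 13 measured, 1 rose and 5 fell without LPS, 5 rose and 1 fell with LPS, and 3 were opposite (Itgam, Fcgr1 and Cd14). All called genes leaned the same way, with 38.8% higher without and 61.3% higher with LPS. With LPS, the calls of Itgam and Fcgr1 were each lost on leaving out any 1 of 7 arrays. Their changes were 0.22 and 0.19 without IFN-gamma/LPS array 1. The list had a median change of -0.06 without and 0.07 with LPS, 1 consistent member (Mertk, lower) and list means between 11.24 and 11.59 in the 4 groups. A few listed markers of other cells were consistently higher, namely Hdc, the histidine decarboxylase listed for mast cells (1.21 without and 0.86 with LPS), Csf3r, the G-CSF receptor listed for neutrophils (1.27 without and 1.5 with LPS), and Kmo (1.08 without and 2.92 with LPS) and Cd209a listed for dendritic cells. Of the mast cell list 1 of 10 and of the neutrophil list 1 of 14 members were consistent, and the list means were 5.18 untreated, 5.36 under IL-4/IL-13, 5.68 under IFN-gamma/LPS and 5.74 under LPS/IL-4/IL-13 and 6.28 untreated, 6.41 under IL-4/IL-13, 6.2 under IFN-gamma/LPS and 6.47 under LPS/IL-4/IL-13, respectively. Among the 14 neutrophil markers 2 rose and 0 fell without LPS, and 5 rose and 0 fell with LPS. Over all genes 7.83% rose without and 12.1% with LPS. Among the 10 mast cell markers 1 rose and 0 fell in each arm. Of 10 dendritic cell markers 2 were consistent, 2 rose and 0 fell without LPS, and 2 rose and 4, Ccr7 among them, fell with LPS. Their list means were 5.74 untreated, 6.00 under IL-4/IL-13, 6.82 under IFN-gamma/LPS and 6.64 under LPS/IL-4/IL-13. The defining mast cell genes Cpa3 (-0.20 without and -0.21 with LPS) and Fcer1a (0.02 without and 0.30 with LPS) were called in neither arm. The part of other cells in these changes was not tested.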

How the data were processed

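RNA of 8 samples was hybridised to Affymetrix mouse gene arrays, and per the labels only RNA with an integrity number above 9 was labelled. The authors deposited 1 value per probe set and array. These deposited values, from 1.46 to 13.71, were used as log2 signals; the scale was read from the values, since the labels name a MAS5 signal, and the authors' background correction and normalization were not given in the sources used here.

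Of 35556 probe sets, 21789 carried 1 gene symbol in the platform annotation, 1621 several and 12146 none. A gene measured by several probe sets (999 genes) was represented by its brightest one, averaged over the 8 arrays. Contrasts of 4 group means were computed in limma 3.58.1 under R 4.3.3 by lmFit and eBayes with a mean-variance trend (4 residual and 7.55 prior degrees of freedom), and p-values were adjusted by Benjamini-Hochberg over 19938 genes. The scripts were first tested on simulated data.

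Named are the 14 consistent genes per direction with the largest smaller change of the arms, 6 opposite genes per orientation, up to 5 consistent, 2 opposite and 2 other members per gene list, and 22 markers; predicted genes and small RNAs were left out of the first 2 groups. MicroRNA loci were added after their values were seen. The members and the 36 gene lists (669 genes, 610 measured) were chosen with earlier results of these data known. Alternatives tried were other scalings, variance models, filters, adjustments, probe set rules, models and leaving out single arrays. Sequences came from RefSeq tables (GRCm38.p6).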

Additional observations from a re-analysis of the deposited data

Results flagged for a closer look

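The test of the difference itself, the change with LPS minus the change without LPS on the log2 scale, was called (limma, adjusted p under 0.05) for many of the genes described above. In the arm with LPS the reference group also received IFN-gamma, so each difference holds that contrast too.

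Among consistently higher genes, the rise was larger with LPS for Myc (2.07), Hbegf (2.06), Kmo (1.84), Arg1 (1.69), Casp6 (1.38), Plekhf1 (1.33), Tlr4 (1.16), Bcar3 (1.03) and Ccl24 (0.99). Next in size came Mir362 (0.84), Ccl17 (0.79), Pla2g4a (0.70), Cdh1 (0.61), Mrc1 (0.53), Il4ra (0.42) and Clec7a (0.30). The rise was smaller with LPS for Rasgrp1 (-3.69), Slc7a2 (-3.27), Ccl7 (-3.05), Cish (-2.31), Socs2 (-2.29), Olr1 (-1.67), Pdcd1lg2 (-1.67), Ccl2 (-1.33) and Psmb10 (-0.73). Then followed F10 (-0.65) and Batf3 (-0.53).

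Among consistently lower genes, the fall was larger with LPS for Vsir (-2.21), P2ry13 (-2.19), Stat4 (-1.95), Cd80 (-1.42), Icosl (-1.12), Ptger4 (-0.91), Mylip (-0.77), St3gal5 (-0.57) and Nod1 (-0.53). Smaller values belonged to Phlpp1 (-0.50) and Ppfibp2 (-0.49). The fall was smaller with LPS for Slc40a1 (2.71), Ccr2 (1.72), Hpgds (1.49), Clec4n (1.43), Nfkbiz (1.30), Il13ra1 (1.06), Nlrp3 (0.79), Thbs1 (0.61) and St18 (0.60). The remainder were Pla2g7 (0.55), Alcam (0.51), C5ar1 (0.34) and Cd180 (0.28).

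Of the genes up without and down with LPS, the difference was called for Kynu (-5.96), Dnase1l3 (-5.51), Ppargc1b (-4.08), Tcf7l2 (-3.83), Ddhd1 (-3.60), Gbp4 (-3.44), BC023105 (-3.29), Bmp2 (-2.94) and Gbp8 (-2.92). Last were Irf1 (-2.34), Cd86 (-2.18), Kdm6b (-1.90) and Tap1 (-1.16). Of the genes down without and up with LPS, it was called for Gab1 (3.85), Stk17b (3.68), Lhfpl2 (3.37), Abca1 (3.09), Hmox1 (2.96), Tlr2 (2.81), Tlr13 (2.76), Pstpip1 (2.62) and Arg2 (2.46). Further such genes were Cd14 (2.02), Pdgfb (1.90), Ccl4 (1.40), Cebpb (1.18), Inpp5d (1.09), Itgam (0.69) and Fcgr1 (0.52).

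For genes called in at most 1 arm, it was above 0 for Cxcl3 (2.35), Il1b (2.21), Fh1 (1.49), Ccl3 (1.11), Cxcl10 (0.96) and Il10 (0.65). Below 0 in this class were Il12b (-5.92), Retnla (-5.70), Socs1 (-3.92), Tnfsf4 (-3.04), Nfil3 (-3.01), Irf4 (-2.94), Il6 (-2.67), Ccr7 (-2.37) and Ido1 (-2.09). Then followed Pecam1 (-2.04), Cd274 (-1.995), Ccl22 (-1.46), Ch25h (-1.42), Irf7 (-1.25), Mir125b-2 (-0.86), Ciita (-0.69) and Nos2 (-0.57).

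Probe sets without a single gene symbol entered no comparison above. With adjustment over all 35556 probe sets, 6 of the 1621 with several symbols and 63 of the 12146 with none were consistently higher with IL-4/IL-13, and 12 and 85 of them were consistently lower. Among the 21789 with 1 symbol, 370 were consistently higher and 386 lower at the same adjustment, which are larger shares.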

How the results depend on the processing

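No named gene changed sign in a called contrast under the alternatives run. The variance models, dim filter, adjustment, block and other models leave the log2 changes as they were, so no sign could change there. Of 440 calls of named genes, counted over the main effect and both arms, 15 were lost with adjustment over all probe sets. The model with LPS left out and the additive model tested the main effect only, so only calls of the main effect could be lost there. Of these, 127 were lost with LPS left out and 38 in the additive model. Of the 1030 consistent genes 926 stayed consistent after quantile normalization, 866 after median centring and 804 without the mean-variance trend. With robust variance 1023 stayed consistent, and with adjustment over all probe sets 704 did. Of 1000 of them above the dim filter, 1000 did. Averaging probe sets kept 1007, with 2 changes of sign. Requiring at least 2-fold left 164 genes higher and 132 lower in the main effect, 213 and 274 without LPS, 334 and 325 with LPS, 1067 called differences, 72 and 29 consistent and 25 opposite genes. Adjusting over all probe sets left 933 genes higher without LPS and 400 opposite genes. A model with additive terms for IL-4/IL-13 and LPS called 628 higher and 664 lower genes in the main effect, and one with LPS left out 23 and 11, with 657 and 462 at an unadjusted p under 0.05; both put the differences between arms into the residual spread. Each arm fitted on its own 4 arrays gave 2455 genes higher without and 1488 higher with LPS.

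Leaving out 1 array at a time gave 806 to 1907 genes higher and 1257 to 2969 lower without LPS, 1558 to 2884 higher with LPS, 2478 to 4979 called differences, 311 to 597 consistently higher, 301 to 636 consistently lower and 333 to 907 opposite genes. With 1 array left in a group, its spread is taken from the other groups. Median centring moved the share of higher among called genes without LPS from 38.8% to 31.8%, and quantile normalization to 43.8%.

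Replicate numbers do not pair the samples by their labels, and replicate deviations correlated between -0.358 and 0.217 across groups. With the replicate number as a block (replicate block), the main effect held 2000 higher and 2180 lower genes, with 487 consistently higher, 518 lower and 600 opposite. Of the named genes, Stat6, C5ar2 and Fcgr1 then lost their calls with LPS (adjusted p = 0.0568, 0.0583 and 0.051). With the numbers of IFN-gamma/LPS crossed, an alternative chosen after seeing the data, there were 605 consistently higher, 626 lower and 802 opposite genes. The values carry no detection calls, so no gene can be called absent, and 2 arrays per group limit the precision.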
